A study of Mus musculus with 12 samples.

Results

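The transcripts of NSC-34/shPGRN cells, which make less progranulin, were set against those of NSC-34/hPGRN cells, which make more (called shPGRN cells and hPGRN cells after this paragraph). All 4 arrays of the first line and all 4 of the second entered the comparison, 8 of the 12 arrays in the series, chosen by their titles. NSC-34 is a mouse hybrid line made by fusing neuroblastoma cells with spinal cord motor neurons. NSC-34/shPGRN cells carry a short hairpin RNA against the coding region of the mouse progranulin gene in the pRS vector and were selected with puromycin. NSC-34/hPGRN cells carry human PGRN in pcDNA3 and were selected with G418. The other 4 arrays are of NSC-34 cells with an empty vector, and these control cells serve here only to tell which line moved. All cells were stepped down to 1% serum and kept in it for 24 h before RNA was taken. Each line is 1 stable line sub-cultured 4 times, so the tests measure the spread between cultures and not between independently made lines, and vector and selection drug cannot be told apart from PGRN dose. The sources used here do not say whether a line is a clone or a pool, nor which vector the control cells carry.

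Progranulin is a secreted glycoprotein that neurons and microglia release and take back up through sortilin and other receptors into lysosomes, where it is cut into granulin peptides. Loss of one copy of GRN causes frontotemporal dementia in people, and loss of both causes a lysosomal storage disease. It acts as a growth and survival factor for neurons and many other cells.

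Mouse Grn was lower in shPGRN cells. Its intensity, the deposited probe brightness after background subtraction on a linear scale, was 646, 635, 665 and 502 on replicates 1 to 4 of shPGRN cells. The 4 hPGRN arrays were at 922, 1273, 1043 and 956, and the control arrays at 896, 899, 811 and 942. No shPGRN array reached the lowest array of either other line (log2 fold change -0.71 ± 0.11 SE, limma adjusted p = 6.33e-05 between the modified lines, here and below the log2 level in shPGRN minus that in hPGRN cells). The annotation assigns the probe to mouse Grn, and whether it also reads the human transcript that hPGRN cells were given was not tested.

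Of 11278 genes tested, 1561 (13.8%) differed between the modified lines at an adjusted p under 0.05. They split almost evenly, with 800 (7.09%) lower and 761 (6.75%) higher in shPGRN cells. At least 1.5-fold differences were found for 273 of them (2.42% of all genes), 132 lower (1.17%) and 141 higher (1.25%). The offset of 50 added in the background correction shrinks fold changes, and this count was 442 with an offset of 16 and 657 with a floor at 16 in place of the normexp and quantile steps. The median log2 fold change over all genes was 0.0027.

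The genes that were higher in shPGRN cells by the widest margin, apart from those already named in the study's tables, included several for secreted or matrix proteins. Only genes whose 4 shPGRN and 4 hPGRN arrays did not overlap could be picked by margin. The lack of overlap in such genes therefore restates this condition. Sparc encodes osteonectin, a collagen-binding matrix protein. Its intensity was 544, 518, 597 and 575 in shPGRN cells against 118, 114, 90.7 and 113 in hPGRN cells, so that every array of the first line was above every array of the second (log2 fold change 1.80 ± 0.095 SE, limma adjusted p = 7.45e-12). The control arrays fell between them, at 204, 196, 259 and 186. Crispld2, a secreted protein with a cysteine-rich domain, was at 222, 255, 236 and 156 against 32.2, 19.5, 34.5 and 23.1 (log2 fold change 1.53 ± 0.12 SE, limma adjusted p = 1.41e-08). Col2a1, the chain of type II collagen, was at 93.4, 121, 107 and 132 against 24.04, 39.9, 21.2 and 18.9 (log2 fold change 0.92 ± 0.11 SE, limma adjusted p = 4.30e-06). For both, the 4 shPGRN arrays stood above all 4 of hPGRN cells.

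Genes for metabolism, redox control and signaling were also higher. Retsat, the enzyme that saturates retinol, was at 1646, 1916, 1521 and 1635 in shPGRN cells and 662, 608, 682 and 615 in hPGRN cells (log2 fold change 1.29 ± 0.089 SE, limma adjusted p = 1.05e-09). Gpx8, a glutathione peroxidase of the endoplasmic reticulum, was at 387, 348, 397 and 467 and 156, 110.3, 126 and 106 (log2 fold change 1.26 ± 0.11 SE, limma adjusted p = 7.54e-08). Neither gene had overlapping arrays. Plcl2, a phospholipase C-like protein that lacks catalytic activity, was at 2377, 1986, 2423 and 1984 against 815, 1146, 941 and 1077 (log2 fold change 1.09 ± 0.11 SE, limma adjusted p = 3.26e-07). Sgk1, a kinase induced by serum and glucocorticoids, was at 298, 444, 334 and 422 against 129.6, 129, 202 and 129.6 (log2 fold change 1.02 ± 0.13 SE, limma adjusted p = 7.13e-06). Replicate 3 of hPGRN cells stood above the other 3 for Sgk1 and still below every shPGRN array. Mylk, myosin light chain kinase, and Hs3st1, a heparan sulfate sulfotransferase, were higher as well, with log2 fold changes of 0.91 (limma, adjusted p = 3.99e-06) and 0.91 (limma, adjusted p = 8.33e-07).

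The genes lower in shPGRN cells by the widest margin, picked under the same condition of no overlap, included channels, transporters and other membrane proteins. Cnga3, a subunit of the cyclic nucleotide-gated channel of cone photoreceptors, was at 17.2, -2.43, 28.5 and 4.44 in shPGRN cells, where its mean is within background and 2 of the 4 arrays are above it (3 when its other probe is counted), and at 99.9, 94.2, 86.3 and 98.7 in hPGRN cells (limma adjusted p = 5.61e-07). Slc24a2, a potassium-dependent sodium/calcium exchanger of neurons, was at 382, 356, 359.9 and 412 against 713, 899.9, 745 and 799.7 (log2 fold change -0.94 ± 0.09 SE, limma adjusted p = 2.21e-07). For both genes the control arrays lay between the lines, at 30.9 to 44.05 and 455 to 498. Tmem130, a transmembrane protein, was not well above background on any shPGRN array and was at 58.2, 61.7, 40 and 90.1 in hPGRN cells, at least 1.58-fold higher there (limma, adjusted p = 3.30e-06). This bound sets the bright line's mean against the lowest signal that counts as above background. Ptn, the heparin-binding growth factor pleiotrophin, was at 171, 241, 167 and 251 against 426, 351, 511 and 454 (log2 fold change -0.87 ± 0.12 SE, limma adjusted p = 2.58e-05).

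Regulators and enzymes were lower too. Gata2, a transcription factor of blood progenitors and of some neurons, was at 794, 881, 929 and 941 in shPGRN cells and 1962, 2003, 1549 and 1770.2 in hPGRN cells (log2 fold change -0.98 ± 0.12 SE, limma adjusted p = 4.76e-06). Pbrm1, a bromodomain subunit of the PBAF chromatin remodeler, was at 859, 878, 789 and 1067 against 1587, 1417, 1495 and 2029 (log2 fold change -0.81 ± 0.12 SE, limma adjusted p = 7.36e-05). Both sat lower on every shPGRN array than on any hPGRN array. Ckmt1, the mitochondrial creatine kinase, was at 104, 107, 129.7 and 124 against 292, 301, 295 and 335 (log2 fold change -1.01 ± 0.10 SE, limma adjusted p = 3.70e-07). Ctps2, which makes CTP from UTP, was at 499, 516, 442 and 563 against 1052, 958, 1033 and 811 (log2 fold change -0.84 ± 0.13 SE, limma adjusted p = 8.37e-05). Gtpbp2, a GTP-binding protein that rescues stalled ribosomes, had control arrays at 986 to 1185, near the shPGRN arrays (864 to 1032) and below those of hPGRN cells (1578 to 1916). Ccn4, a matricellular target of Wnt signaling, was lower at 25.3 to 46.9 against 104 to 148 (log2 fold change -0.86 ± 0.097 SE, limma adjusted p = 2.76e-06).

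**Figure D1:**
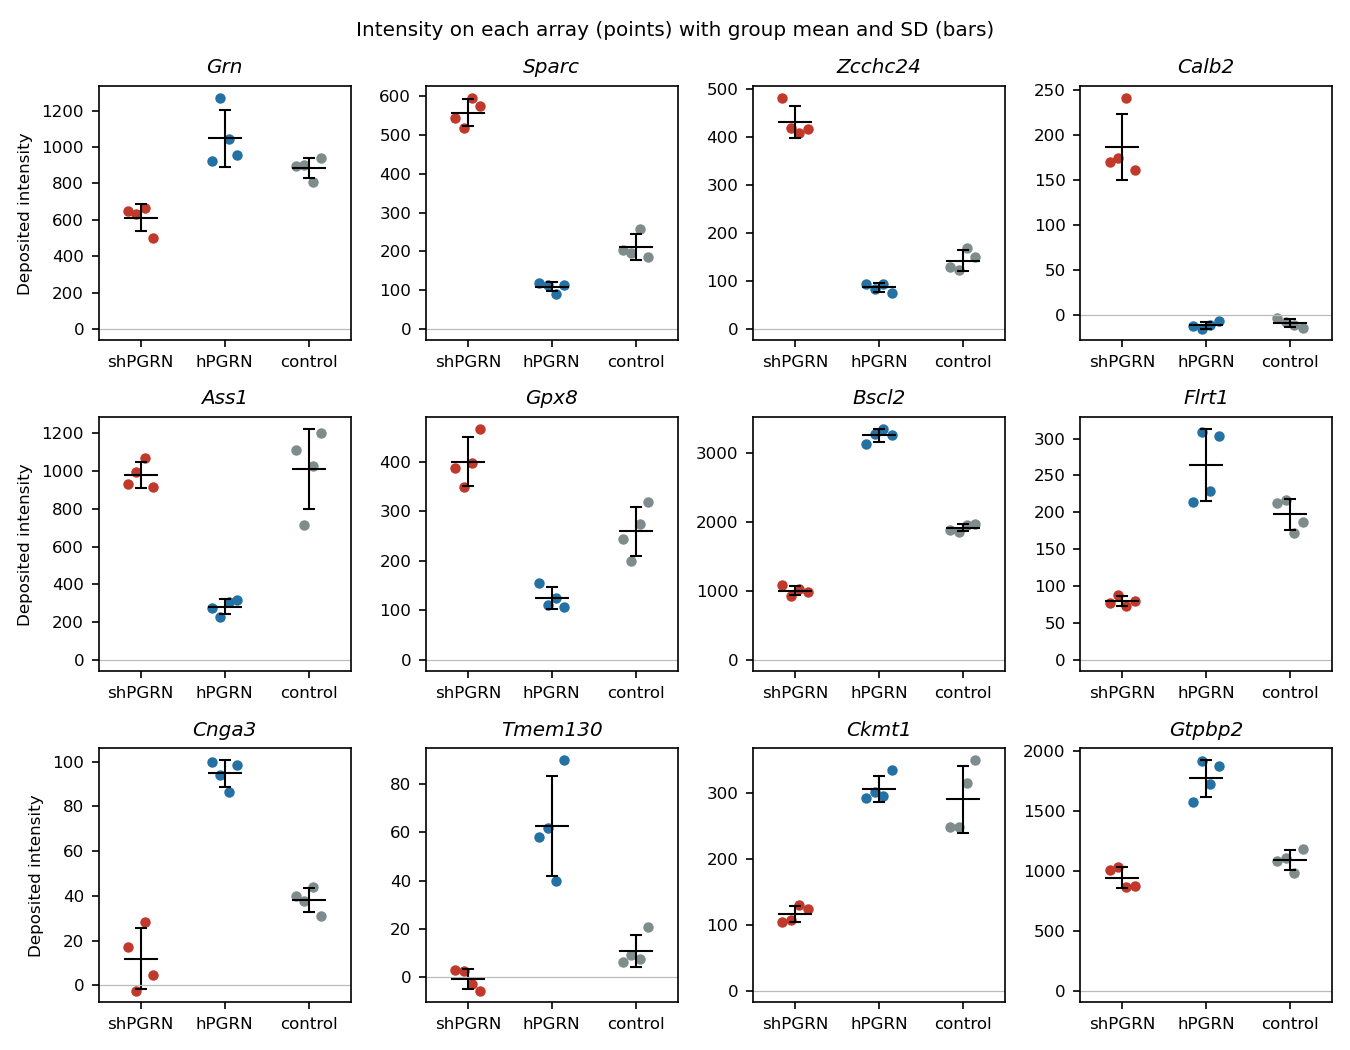
Deposited intensity (vertical axis, linear) of 12 genes on each array of the shPGRN, hPGRN and control lines, with the group mean and SD of 4 arrays as bars. For each gene the 4 shPGRN arrays and the 4 hPGRN arrays do not overlap, which was a condition for picking all of them but Grn. For Sparc, Zcchc24, Gpx8, Bscl2 and Cnga3 the control arrays lie between the lines.

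The control arrays were used to describe which line differed from control cells. Control cells are a line of their own, so a shift in them cannot be told apart from a shift shared by both modified lines. Of the 1561 genes, 661 (42.3%) passed the shPGRN step, the test of that line against control cells, and not the same step for hPGRN cells. The opposite, with only the hPGRN step past the threshold, held for 233 genes (14.9%), a count that was 146 without replicate 2 and 138 without replicate 4 of hPGRN cells. Over all tested genes 14.2% passed in the shPGRN step and 6.94% in the hPGRN step. These steps share the control arrays with each other and an arm with the main comparison, so the classes describe the genes and are not tests of their own. Neither step passed for 574 genes (36.8%), and both passed in the same direction for 66. The last count was 39 to 43 without replicate 2, 3 or 4 of hPGRN cells or replicate 1 of control cells, and 40 with a normexp offset of 16. On a scale where 0 is the hPGRN mean and 1 the shPGRN mean, the control mean had a median position of 0.328. It lay between the modified lines for 1052 genes, beyond hPGRN cells for 375 and beyond shPGRN cells for 134.

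Only 27 genes (1.73%) passed both steps in opposite directions, with control cells in the middle. Of these 16 were lower and 11 higher in shPGRN cells, and 17 genes in all were left without replicate 1 or without replicate 3 of control cells. Zcchc24, which encodes a zinc finger protein, was at 431 ± 34.2 (SD, n = 4 arrays) in shPGRN cells, 142 ± 21.3 in control cells and 86.2 ± 9.45 in hPGRN cells, with log2 fold changes of 1.23 and -0.43 against control cells. Fam181b followed the same order, at 195 ± 14.9, 75.2 ± 26.8 and 25.2 ± 11.04. Acss2, which turns acetate into acetyl-CoA, ran the other way, at 489 ± 21.3, 694 ± 59.2 and 999 ± 183. Bscl2, the gene of the lipid droplet protein seipin, Pi16, a peptidase inhibitor, and Psmb8, an immunoproteasome subunit, also had control cells in the middle and were lower in shPGRN cells. Genes with wide margins that moved in 1 line included Calb2, which encodes calretinin and was above background on all 4 shPGRN arrays and on no hPGRN array, and Ass1, the arginine-making enzyme argininosuccinate synthase. Ass1 was at 917 to 1070.3 in shPGRN cells and 713 to 1199 in control cells, which overlapped, and at 227 to 318 in hPGRN cells. Prkdc, a kinase that joins broken DNA ends, and Retsat were above control cells in both modified lines and more so in shPGRN cells.

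**Figure D2:**
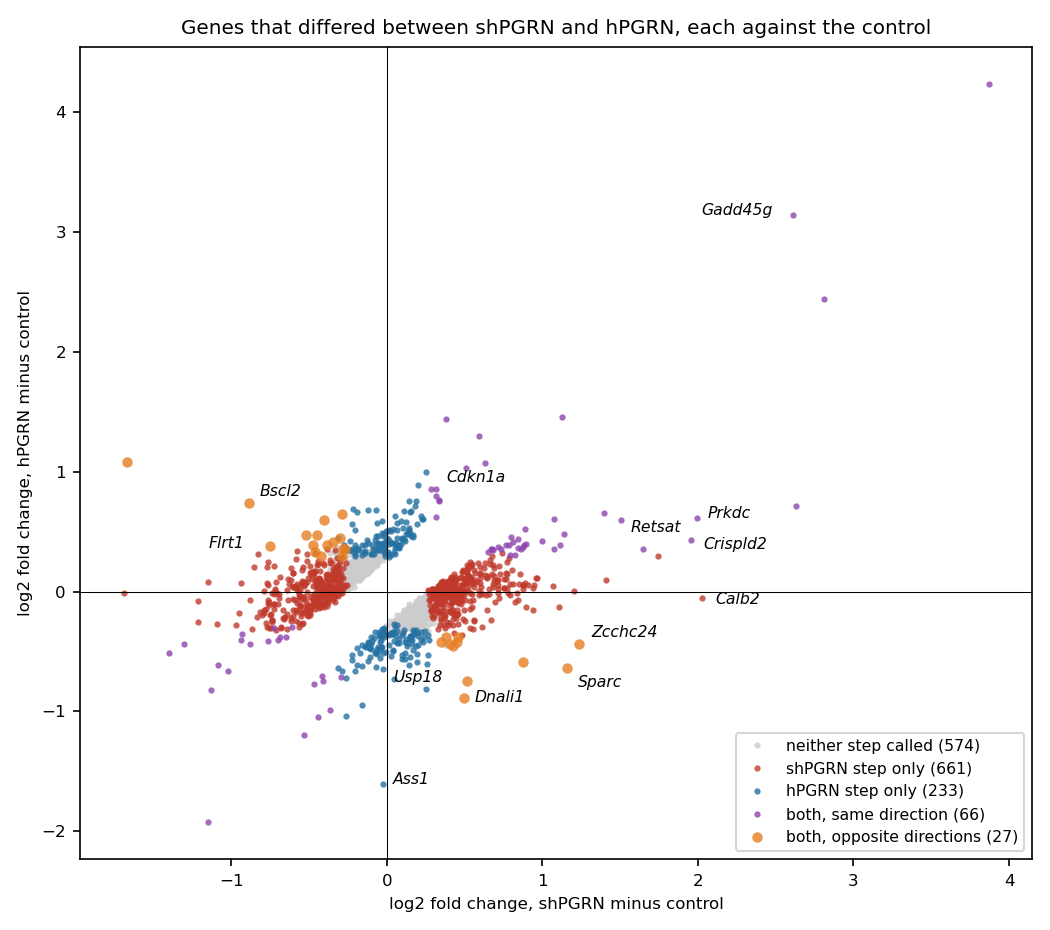
Log2 fold change against control cells in shPGRN (horizontal axis) and in hPGRN cells (vertical axis) for the 1561 genes that differed between them, coloured by which step passed an adjusted p of 0.05. The 661 genes with the shPGRN step alone spread along the horizontal axis and the 233 with the hPGRN step alone along the vertical one. The 2 axes share the control arrays.

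The genes were then grouped into 32 lists by function, plus 2 lists on cilia and histones that were written after the values were seen. Each count is to be read against the 13.8% of all genes that passed. Sterol synthesis and uptake stood furthest from it, with 13 of 24 tested members (54.2%) lower, none higher, and a median log2 fold change of -0.37. Msmo1, the sterol methyl oxidase, was at 123, 51.6, 92.3 and 69.9 in shPGRN cells against 207, 235, 189.8 and 263 in hPGRN cells (log2 fold change -0.93 ± 0.12 SE, limma adjusted p = 1.21e-05). Hsd17b7, which reduces the sterol C3 ketone, was at 1996, 1842, 1991 and 1918 against 3083, 3026, 3325 and 3355 (log2 fold change -0.70 ± 0.084 SE, limma adjusted p = 5.67e-06). Neither gene overlapped between the lines. Lss, lanosterol synthase, was lower by a log2 fold change of -0.74 (limma, adjusted p = 2.27e-04). Insig1, which holds the sterol sensor SCAP in the endoplasmic reticulum, and Sqle, squalene epoxidase, were chosen after their values were seen and had log2 fold changes of -0.64 (limma, adjusted p = 8.82e-04) and -0.48 (limma, adjusted p = 0.00172). The list's median was -0.21 for shPGRN against control cells and 0.15 for hPGRN against control cells. Of the 13 genes, 6 passed the shPGRN step alone, 2 the hPGRN step alone and 5 neither.

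The other lipid lists and that of the citric acid cycle also had more lower than higher members. The share that passed was 21.2% for fatty acids, 26.5% for phospholipids and triglycerides and 21.9% for the citric acid cycle, against 13.8% of all genes. Fatty acid synthesis and oxidation had 9 of 52 members lower and 2 higher, with a median of -0.08, and 7 in all passed without replicate 3 of shPGRN cells and 6 with a normexp offset of 16. Phospholipid and triglyceride synthesis had 9 of 49 lower and 4 higher, with a median of -0.016, and 8 in all without replicate 1 of shPGRN cells. In the citric acid cycle and pyruvate list 6 of 32 members were lower and 1 was higher (4 in all without replicate 2 of shPGRN cells and with a normexp offset of 16), and the lower ones held subunits of pyruvate dehydrogenase and isocitrate dehydrogenases. Idh1, the cytosolic isocitrate dehydrogenase, was at 909.8, 907, 1043 and 959.7 in shPGRN cells, 1495, 1196, 1209 and 1455 in hPGRN cells and 1715, 1492, 1738 and 1709 in control cells (log2 fold change -0.45 ± 0.096 SE, limma adjusted p = 0.00217). It was lowest in shPGRN cells, while the arrays of the other two lines overlapped.

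**Figure D3:**
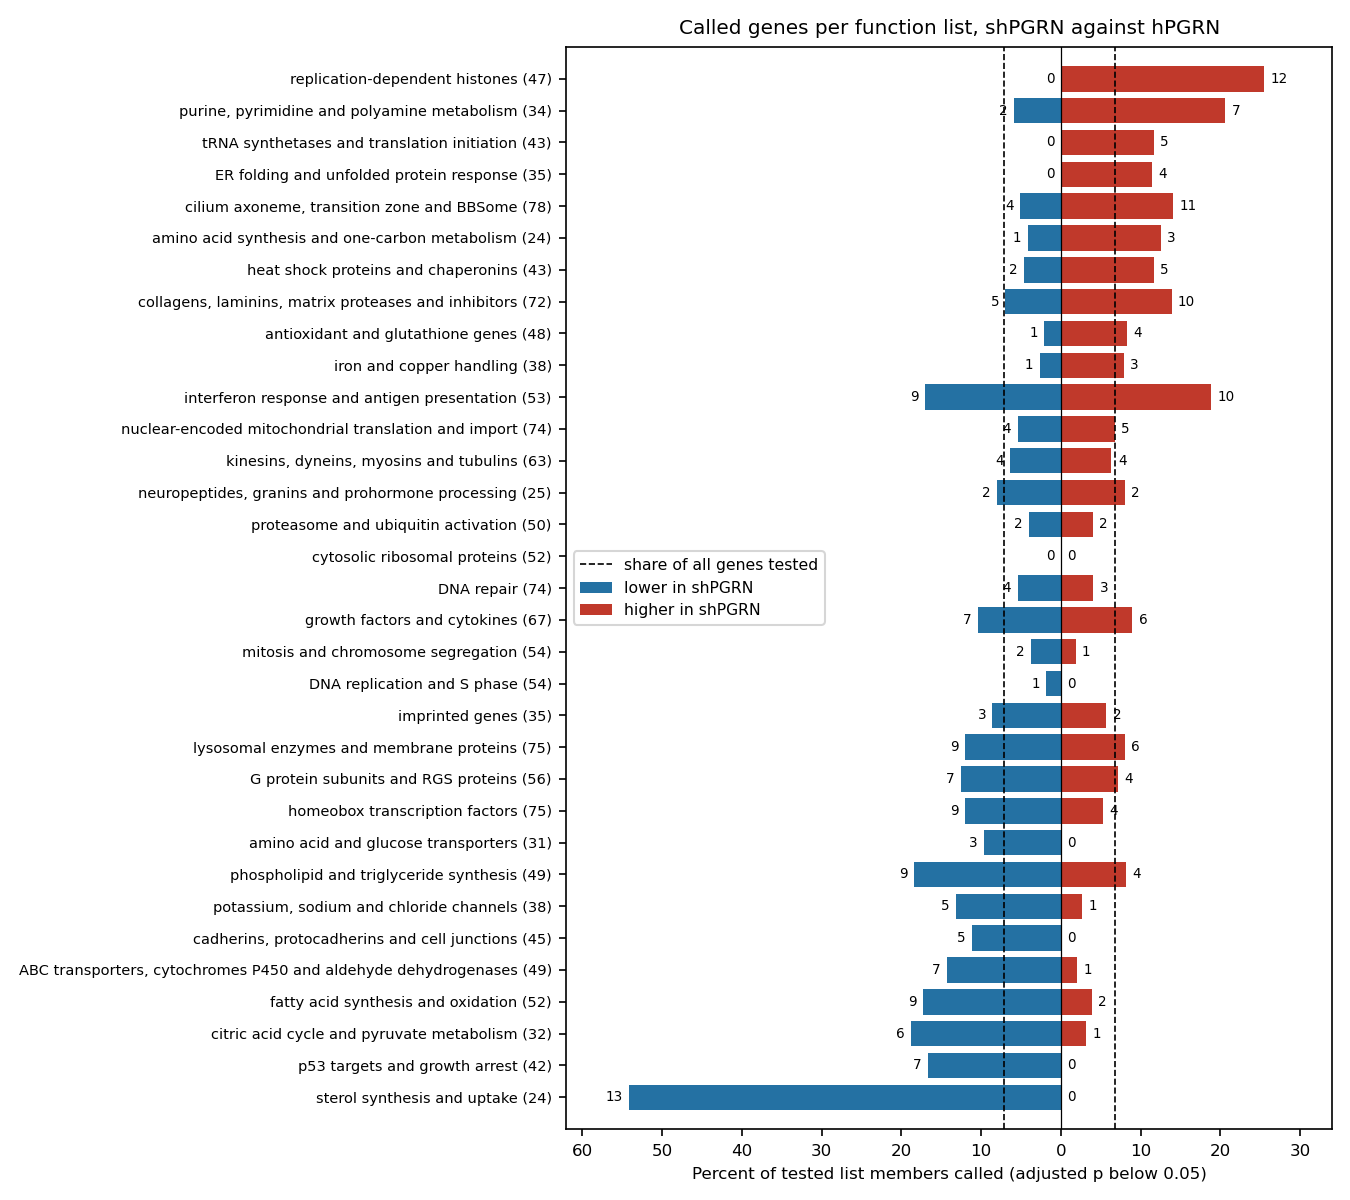
Percent of the tested members of each function list shown (number tested in brackets) that were lower (left, blue) or higher (right, red) in shPGRN than in hPGRN cells at an adjusted p under 0.05, with the count at each bar end. Dashed lines mark the 7.09% and 6.75% of all genes, and sterol synthesis (13 lower of 24) reaches furthest to the left.

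Interferon response and antigen presentation split into 2 groups that moved in opposite directions. Class I MHC molecules show peptides cut by the immunoproteasome to T cells, and the interferon-stimulated genes of the list act against viruses inside the cell. Of 53 tested members 9 were lower and 10 higher in shPGRN cells (35.8% in all, against 13.8% of all genes). All 9 lower members lie on chromosome 17, which carries the MHC and where most tested genes had a negative fold change in this comparison. They are the class I genes H2-Q8, H2-D1, H2-T23, H2-Q7, H2-K1, H2-M3 and H2-T10, the immunoproteasome subunit Psmb8 and the peptide-loading factor Tapbp. H2-D1 was at 1089, 908, 1112 and 1012 in shPGRN cells against 1800.2, 1812, 2122 and 1729.7 in hPGRN cells (log2 fold change -0.81 ± 0.11 SE, limma adjusted p = 3.25e-05). Psmb8 was at 368, 390.1, 291 and 352 against 674, 672, 724 and 559 (log2 fold change -0.79 ± 0.097 SE, limma adjusted p = 6.89e-06). Class I genes are close copies of each other, so a probe for one may read another, and the H2-K1 call was lost when the probes of a gene were averaged (limma, adjusted p = 0.059, over a range of 0.0024 to 0.059 in all alternatives).

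Outside chromosome 17, 9 of 38 members were higher in shPGRN cells and 0 lower, with a median log2 fold change of 0.17. Over all genes 6.75% were higher. The 0 follows from a cut at the chromosome that holds all the lower members, and the median leaves those members out. The step was on the side of hPGRN cells: the median was -0.17 for hPGRN against control cells and 0.017 for shPGRN against control cells, and 6 of the 9 passed the hPGRN step alone while 3 passed neither. Usp18, a protease that takes ISG15 off proteins and damps interferon signaling, was at 77.1, 59.3, 80.8 and 84.5 in shPGRN cells, 25.2, 32.1, 10.03 and 28.4 in hPGRN cells and 87.1, 71.2, 84.4 and 68.7 in control cells (log2 fold change 0.62 ± 0.096 SE, limma adjusted p = 9.25e-05 between the modified lines and -0.65, adjusted p = 1.36e-04, for hPGRN against control cells). Only the hPGRN arrays stood apart. Ifi27, an interferon-induced mitochondrial protein, was at 2704, 2260.4, 2669 and 2222, 1200.4, 1560.4, 1329 and 1475 and 2108, 1841, 2018 and 2169 in the same order of lines (log2 fold change 0.79 ± 0.10 SE, limma adjusted p = 9.95e-06). The remaining examples were chosen after their values were seen. Irgm2, a GTPase that guards vacuoles against microbes, was at 151, 161, 192 and 103, 37.8, 71.7, 51.9 and 68.5 and 202, 95.9, 132 and 152 (log2 fold change 0.78 ± 0.14 SE, limma adjusted p = 3.22e-04). Bst2, the tetherin that holds budding virus at the cell surface, was at 177, 170.0, 158 and 170.1, 68.1, 89.2, 65.8 and 50.8 and 103, 103, 173 and 192 (log2 fold change 0.78 ± 0.12 SE, limma adjusted p = 1.01e-04). hPGRN cells were lowest for both. Irf9, the DNA-binding subunit of the factor ISGF3, and Rsad2, the antiviral enzyme viperin, had log2 fold changes of 0.69 (limma, adjusted p = 4.52e-04) and 0.66 (limma, adjusted p = 1.01e-04). Ifi27 and Rsad2 lie on chromosome 12, where most genes were higher in shPGRN cells, and 7 of the 9 lie elsewhere. Macrophage and microglia markers, 10 of which have a probe, summed to 79.2 to 132 in shPGRN cells and 63.0 to 123 in hPGRN cells, with 2 above background on all arrays of each.

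ISGF3 and interferon regulatory factors bind a paired GAAA element, and the promoter sequence of these genes is shown for that reason. The letters GAAANNGAAA were searched on both strands in RefSeq promoter windows of GRCm38.p6, from 250 bases before to 50 bases after a gene start. A window was found for 9147 of the tested genes, of which 3.68% hold the letters, and 3.44% of all 32851 windows do. Of the 10 higher interferon genes 8 had a window, and 6 of these hold the letters (75%). Of the 9 lower ones 7 had a window and 1 holds them (14.3%), and of the 28 list members with a window that did not pass, 10 hold them (35.7%). The 100 bases around the element are given for 5 of the higher genes, with the matching letters in capitals. The remaining gene, Eif2ak2, holds 1 match and is the 1 list member on chromosome 17 that was higher. In Rsad2 the element is on the reverse strand, and overlapping matches merge into 1 run.
Isg15 (chr4:156200836-156200935, minus strand): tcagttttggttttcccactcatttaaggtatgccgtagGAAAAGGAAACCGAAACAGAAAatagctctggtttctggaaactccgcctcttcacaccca
Irgm2 (chr11:58214868-58214967, plus strand): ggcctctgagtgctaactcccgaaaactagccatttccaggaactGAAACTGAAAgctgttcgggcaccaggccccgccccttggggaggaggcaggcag
Irgm1 (chr11:48871393-48871492, minus strand): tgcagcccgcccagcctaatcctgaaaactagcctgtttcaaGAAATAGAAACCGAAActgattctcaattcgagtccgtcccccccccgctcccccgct
Bst2 (chr8:71537545-71537644, minus strand): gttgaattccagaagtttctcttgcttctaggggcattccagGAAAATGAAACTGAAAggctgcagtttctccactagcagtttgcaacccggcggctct
Rsad2 (chr12:26456518-26456617, minus strand): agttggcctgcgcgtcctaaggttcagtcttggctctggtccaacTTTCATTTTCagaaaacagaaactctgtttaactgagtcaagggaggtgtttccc
Isg15 holds 3 overlapping matches, Irgm1 and Bst2 hold 2 each, and Irgm2 and Rsad2 hold 1. A match of letters is a description and not a measured site. Isg15 itself, the ubiquitin-like modifier, was at 78.99, 53.04, 102 and 38.4 in shPGRN cells and 19.5, 33.8, 24.5 and 24.99 in hPGRN cells (log2 fold change 0.50 ± 0.11 SE, limma adjusted p = 0.00346). Irgm1, a GTPase like Irgm2, was at 6386, 6535, 4552 and 5794 and 4157, 4209, 3801 and 4831, with overlapping arrays (log2 fold change 0.44 ± 0.11 SE, limma adjusted p = 0.0118), and its call was lost without normexp and quantile steps (limma, adjusted p = 0.0503, over a range of 0.00203 to 0.0503 in all alternatives).

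**Figure D4:**
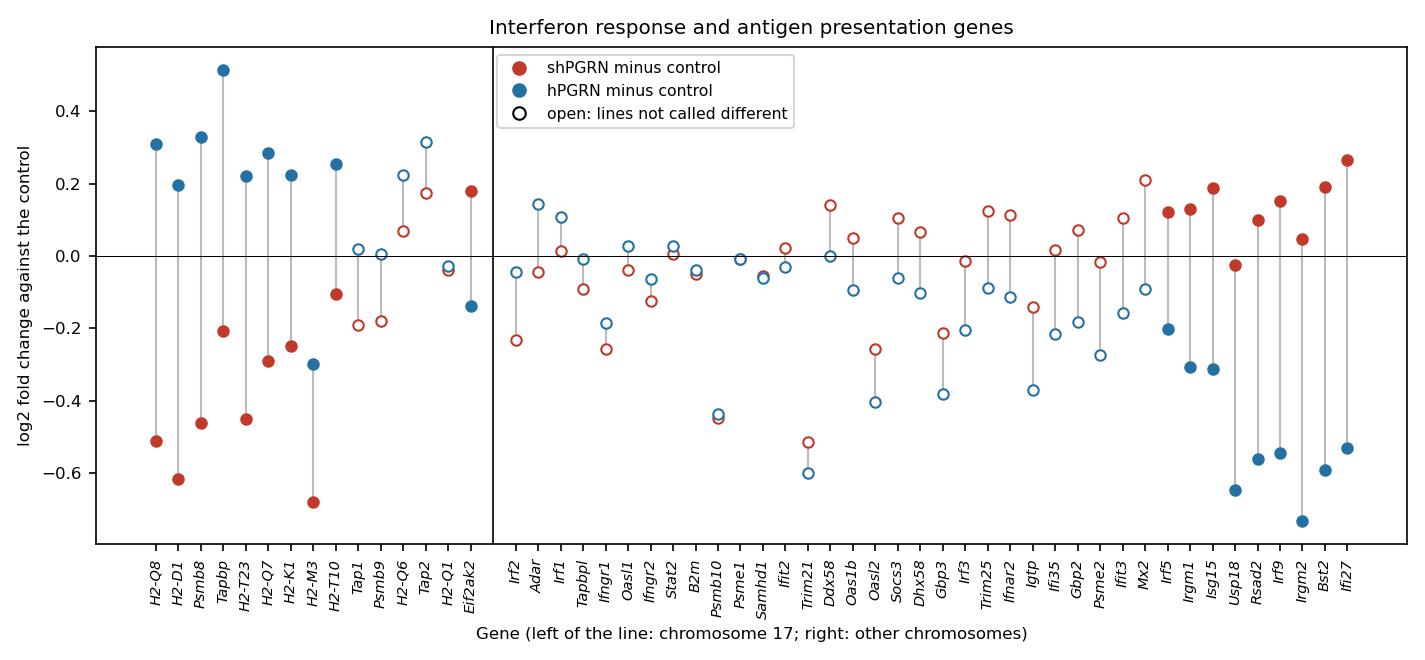
Log2 fold change against control cells of shPGRN (red) and hPGRN cells (blue) for the 53 tested interferon and antigen presentation genes, filled where the modified lines differed at an adjusted p under 0.05. On chromosome 17 the 9 lower genes have red below blue, and on other chromosomes the 9 filled genes have blue below red, with most blue points below 0 and the red points nearer 0.

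Some histone genes were higher in shPGRN cells, in a list written after part of its values were seen. Replication-dependent histones are made in S phase from transcripts that mostly lack a poly(A) tail. Of 47 tested genes 12 (25.5%) were higher and 0 lower, with a median log2 fold change of 0.17, and none of the 12 lies on chromosome 12, 17 or 19. H4c9 was at 69.3, 102, 107 and 87.5 in shPGRN cells, 31.8, 32.2, 36.4 and 19.9 in hPGRN cells and 82.5, 52.1, 58.4 and 60.8 in control cells (log2 fold change 0.67 ± 0.099 SE, limma adjusted p = 5.40e-05). H2bc6 was at 299, 364, 323 and 329, 214, 223, 132 and 221 and 311, 289, 265 and 307 (log2 fold change 0.59 ± 0.11 SE, limma adjusted p = 6.29e-04). In both the control arrays lay closer to shPGRN cells, and 7 of the 12 passed the hPGRN step alone. H2ac18 differed from this, at 169 to 184 in shPGRN cells, 64.8 to 103 in hPGRN cells and 32.7 to 51.9 in control cells, so that both modified lines were above control cells. Histone genes are near copies, and their probes may read more than 1 of them.

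Few genes of the cell cycle lists passed. In the list of DNA replication and S phase 1 of 54 tested genes was lower and 0 higher, and in mitosis and chromosome segregation 2 of 54 were lower and 1 higher, both under the share of all genes. Leaving out 1 array moved the first count between 0 and 2 and the second between 0 and 4, and array weights gave 4 and 5. None of 52 cytosolic ribosomal protein genes passed, with a median log2 fold change of 0.0066. Nucleotide and polyamine metabolism, by contrast, had 7 of 34 members higher and 2 lower (26.5% in all, against 13.8% of all genes). Among the higher ones were the S-phase genes Tk1, thymidine kinase, and Rrm2, a ribonucleotide reductase subunit, both chosen after their values were seen, with log2 fold changes of 0.37 (limma adjusted p = 0.00806) and 0.35 (limma adjusted p = 0.0491). The Tk1 call was lost when the probes of a gene were averaged (limma adjusted p = 0.155, over a range of 0.00106 to 0.155 in all alternatives), and the Rrm2 call in 10 of 21 alternatives, among them those without replicate 2, 3 or 4 of either line (limma adjusted p = 0.0171 to 0.146 in all alternatives). Cad, which starts pyrimidine synthesis, was at 535, 612, 643 and 589 in shPGRN cells against 371, 391, 288 and 405 in hPGRN cells (log2 fold change 0.62 ± 0.15 SE, limma adjusted p = 0.00731), and its call was lost without normexp and quantile steps (limma, adjusted p = 0.0637, over a range of 0.000121 to 0.0637 in all alternatives). Adsl, an enzyme of purine synthesis, was at 499, 664, 569 and 602 against 359, 348, 479 and 435 (log2 fold change 0.46 ± 0.10 SE, limma adjusted p = 0.00319). Adsl arrays of the 2 lines did not overlap.

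Some growth arrest genes were lower in shPGRN cells. In the list of p53 targets and growth arrest 7 of 42 members (16.7%) were lower and none higher, with a median of -0.06. Rb1, the retinoblastoma protein that holds back S phase, was at 86.9, 68.4, 80.1 and 121 in shPGRN cells against 165, 171, 152 and 200 in hPGRN cells (log2 fold change -0.60 ± 0.11 SE, limma adjusted p = 4.29e-04). Trp53inp1, a stress protein induced by p53 that was chosen after its values were seen, was at 123 to 184 against 218 to 282 (log2 fold change -0.54 ± 0.11 SE, limma adjusted p = 0.00107), and its call was lost when the probes of a gene were averaged (limma adjusted p = 0.146, over a range of 0.000521 to 0.146 in all alternatives). Cdkn1a, the cyclin-dependent kinase inhibitor p21, was at 254, 346, 325 and 275, 479, 455, 509 and 432 and 206, 195, 252 and 253 in the shPGRN, hPGRN and control lines (log2 fold change -0.54 ± 0.10 SE, limma adjusted p = 6.04e-04). Cdkn1a was above control cells in both modified lines and most in hPGRN cells. Gadd45g, a stress-induced arrest gene, was likewise far above the control arrays (13.9 to 23.8) in both, at 409 to 614 and 669 to 743.

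A few stress genes of the endoplasmic reticulum were higher in shPGRN cells. In the list of ER folding and the unfolded protein response 4 of 35 members (11.4%) were higher and none lower, a share below that of all genes that passed, with a median of 0.037 (-0.0028 without replicate 2 of hPGRN cells). With array weights 7 members passed. Ddit3, which encodes the stress-induced transcription factor CHOP, was at 1805, 1965, 1885 and 1757 in shPGRN cells, 1064, 1014, 938 and 1056 in hPGRN cells and 997, 742, 949 and 1231 in control cells (log2 fold change 0.82 ± 0.11 SE, limma adjusted p = 2.16e-05). Chac1, a glutathione-degrading enzyme induced downstream of CHOP, was at 2534, 2546, 2832 and 2988, 1635, 1962, 1765 and 1846 and 2438, 2009.6, 2321 and 2359 (log2 fold change 0.58 ± 0.094 SE, limma adjusted p = 1.62e-04). For Ddit3 the shPGRN arrays stood apart from both other lines, and for Chac1 the hPGRN arrays were the lowest, below every control array. Hsp90b1, the ER chaperone GRP94, and Fkbp11, an ER prolyl isomerase, had log2 fold changes of 0.43 (limma, adjusted p = 0.00672) and 0.48 (limma, adjusted p = 6.08e-04). Among tRNA synthetases and initiation factors 5 of 43 were higher and none lower (11.6%, under the 13.8% of all genes). This count was 1 in all without replicate 4 of hPGRN cells. Kars, lysyl-tRNA synthetase, was higher, at 2167 to 2596 against 1449 to 1595 (log2 fold change 0.62 ± 0.092 SE, limma adjusted p = 5.94e-05). Of 48 antioxidant and glutathione genes 4 were higher and 1 lower (10.4% in all): Gsta4, a glutathione transferase that clears lipid aldehydes, was higher (log2 fold change 0.73 ± 0.10 SE, limma adjusted p = 4.27e-05) and Mgst3, a microsomal glutathione transferase, was lower (log2 fold change -0.77 ± 0.091 SE, limma adjusted p = 4.84e-06).

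Matrix genes were more often higher than lower. Of 72 tested collagens, laminins, proteases and inhibitors 10 were higher and 5 lower (20.8% in all, against 13.8% of all genes), with a median of 0.065. Lamb2, a laminin beta chain of basement membranes and the neuromuscular synapse, was at 157, 174, 179 and 198 in shPGRN cells against 60.8, 52.3, 61.7 and 73.9 in hPGRN cells (log2 fold change 0.89 ± 0.12 SE, limma adjusted p = 2.16e-05). Plat, tissue plasminogen activator, was at 358, 334, 341 and 442 against 208, 139.9, 198 and 175 (log2 fold change 0.81 ± 0.11 SE, limma adjusted p = 2.17e-05). Lama5, a laminin alpha chain chosen after its values were seen, was higher with a log2 fold change of 0.49 (limma, adjusted p = 0.00205). Igfbp7, a secreted binder of insulin-like growth factors, belongs to the list of growth factors and cytokines. It was at 1008, 1129, 941 and 979 against 581, 441, 672 and 555 (log2 fold change 0.79 ± 0.13 SE, limma adjusted p = 1.78e-04). Each of these 4 passed the shPGRN step alone. Fibroblast markers, 10 of which have a probe, summed to 5244 to 5626 in shPGRN cells and 5874 to 6758 in hPGRN cells, with 3 above background on all arrays of each. In bulk RNA, fewer cells of a type and less RNA per cell cannot be told apart.

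Lists of ion channels and cell contacts had shares near or below that of all genes. Of 38 potassium, sodium and chloride channel genes 5 were lower and 1 higher (15.8% in all). Clcn3, an endosomal chloride/proton exchanger, was at 508, 467, 593 and 437 against 853, 839, 779 and 1025 (log2 fold change -0.72 ± 0.10 SE, limma adjusted p = 3.13e-05), and Kcnh2, the potassium channel ERG1, was lower too (log2 fold change -0.59 ± 0.11 SE, limma adjusted p = 6.32e-04). Cadherins, protocadherins and junction genes had 5 of 45 lower (11.1%) and none higher (3 without replicate 1, 3 or 4 of hPGRN cells or replicate 2 or 4 of shPGRN cells), among them Celsr3, an atypical cadherin of axon guidance, with a log2 fold change of -0.54 (limma, adjusted p = 8.18e-04). Lysosomal genes had 9 of 75 lower, Grn included, and 6 higher, with a median of 0.012. Their share of 20% in all was above the 13.8% of all genes. Fuca1, the lysosomal fucosidase, was higher, at 99.8, 86.7, 90.2 and 118 in shPGRN cells against 10.3, 25.5, 38.3 and 35.8 in hPGRN cells (log2 fold change 0.78 ± 0.11 SE, limma adjusted p = 5.47e-05).

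The other lists are given by their counts and the share that passed, which was 13.8% over all genes. G protein subunits and RGS proteins had 7 of 56 lower and 4 higher (19.6% in all). Growth factors and cytokines had 7 of 67 and 6 (19.4%), and homeobox factors 9 of 75 and 4 (17.3%). Without replicate 2 of hPGRN cells the last 2 lists had 8 calls each. ABC transporters, cytochromes P450 and aldehyde dehydrogenases had 7 of 49 lower and 1 higher (16.3% in all). Mitochondrial translation and import had 4 of 74 and 5 (12.2%). These fell to 5 calls without replicate 1 of shPGRN cells, and the former also without replicate 2 of hPGRN cells and the latter without replicate 3 of shPGRN cells. Counts of 5 or fewer in each direction were found for the lists that follow, given with the number tested and the share that passed. Above the 13.8% of all genes were amino acid synthesis (24, 16.7%), heat shock proteins (43, 16.3%), neuropeptides (25, 16%) and imprinted genes (35, 14.3%). Below it were kinesins and tubulins (63, 12.7%), iron and copper handling (38, 10.5%) and amino acid and glucose transporters (31, 9.68%). DNA repair (74, 9.46%) and proteasome (50, 8%) were below it too. These shares rest on few genes.

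Cilium genes were put in a second list, written after some of its values were seen. It had 11 of 78 tested members higher and 4 lower (19.2% in all, against 13.8% of all genes), with a median of 0.018. Cilia are built on a microtubule axoneme, whose beating is driven by dynein arms and whose base is closed by a transition zone. Dnali1, a light chain of inner-arm dynein, was at 159, 94.7, 123 and 72.5 in shPGRN cells and 69.9, 47.9, 50.8 and 59.5 in control cells, and not well above background on any hPGRN array, a difference of at least 2.15-fold between the modified lines (limma, adjusted p = 2.20e-08). Tcte3, a dynein light chain of sperm flagella, was at 278, 308, 263 and 258, 112, 106, 141 and 132 and 143, 167, 262 and 205 in the shPGRN, hPGRN and control lines (log2 fold change 0.84 ± 0.11 SE, limma adjusted p = 2.27e-05). Both genes passed both steps in opposite directions. Gas8, a subunit of the dynein regulatory complex, was at 297 to 374 against 156 to 226 (log2 fold change 0.64 ± 0.098 SE, limma adjusted p = 7.79e-05). Bbs10, a chaperone that assembles the BBSome, and Erich3, a protein of ciliary tips, had log2 fold changes of 0.67 (limma, adjusted p = 6.31e-05) and 0.83 (limma, adjusted p = 3.41e-06). Ccdc113, a coiled-coil protein of centriolar satellites and axonemes, had 0.65 (limma, adjusted p = 2.31e-04).

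The called genes were not spread evenly over the chromosomes, which were taken from RefSeq by gene. On chromosome 19, 83 of 414 tested genes (20%) were lower in shPGRN cells and 9 (2.17%) higher (5 without replicate 1 or 4 of hPGRN cells), with a median log2 fold change of -0.12. On chromosome 17, 104 of 567 (18.3%) were lower and 29 (5.11%) higher, with a median of -0.12. On chromosome 12 the order was turned, with 72 of 356 (20.2%) higher, 5 (1.40%) lower (3 to 5 with 1 array left out) and a median of 0.13. On chromosomes 17 and 19 each, 27.3% of genes had a positive fold change, and on chromosome 12 77.8% did. Apart from the Y chromosome, with 2 tested genes, the next largest medians were 0.06 on chromosome 15, with 46 of 460 genes higher and 17 lower, and -0.05 on the X chromosome, with 39 of 353 lower and 13 higher.

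These shifts were seen on every array. The level of a chromosome on an array was taken as the median over its genes of the log2 value minus the mean of the 12 arrays. For chromosome 12 this level was 0.07 to 0.10 in shPGRN cells, -0.08 to -0.05 in hPGRN cells and -0.017 to 0.0098 in control cells. For chromosome 19 it was -0.09 to -0.06, 0.04 to 0.05 and 0.03 to 0.03, so that shPGRN cells stood apart. For chromosome 17 it was -0.04 to -0.02, 0.08 to 0.08 and -0.05 to -0.04, so that hPGRN cells stood apart. The median fold changes against control cells gave the same order, at 0.009 for shPGRN and 0.12 for hPGRN cells on chromosome 17 and at -0.10 and 0.016 on chromosome 19.

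The shifts ran along stretches of neighbouring genes, as seen when the genes were put in RefSeq order in blocks of 50. The stretches were drawn after their values were seen. The first 400 tested genes of chromosome 17 had 94 lower (23.5%) and 9 higher, with a median of -0.15. In the next 100 genes, Plcl2 among them, 7 were lower and 14 higher. Both modified lines lay above control cells there, with medians of 0.19 each. Chromosome 8 had 56 genes lower and 56 higher of 592, but its last 142 genes had 34 higher (23.9%) and 3 lower, with a median of 0.14, while its first 450 had 53 lower and 22 higher, with a median of -0.05. Calb2, Crispld2, Gas8 and Kars lie in the last 142. The last 103 genes of the X chromosome, Ctps2 among them, had 21 lower and 4 higher. DNA was not measured, and the sources used here give no karyotype of the lines.

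Genes on chromosomes 12, 17 and 19 made up 11.9% of the tested genes and 24.0% of the lower and 14.5% of the higher genes. Without them 608 genes were lower and 651 higher of 9941, and 12.7% passed. Of the genes at least 1.5-fold lower 27.3% lay on chromosomes 17 and 19, which hold 8.7% of the tested genes. Bscl2, Flrt1, Pi16, Gtpbp2 and H2-D1 were among these lower genes. Of the genes at least 1.5-fold higher 10.6% lay on chromosome 12, which holds 3.16% of the tested genes. The function lists were affected to different degrees. All 9 lower antigen presentation genes lay on these chromosomes, against 1 of the 13 lower sterol genes, 3 of the 9 lower phospholipid and triglyceride genes, 1 of the 7 lower growth arrest genes and none of the 12 histone genes. Of the lysosomal genes, 5 of the 9 lower and 2 of the 6 higher lay on them. On the other chromosomes 4 of 65 tested lysosomal genes were lower and 4 higher. The part of the chromosomal shifts in any single gene's difference was not tested.

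**Figure D5:**
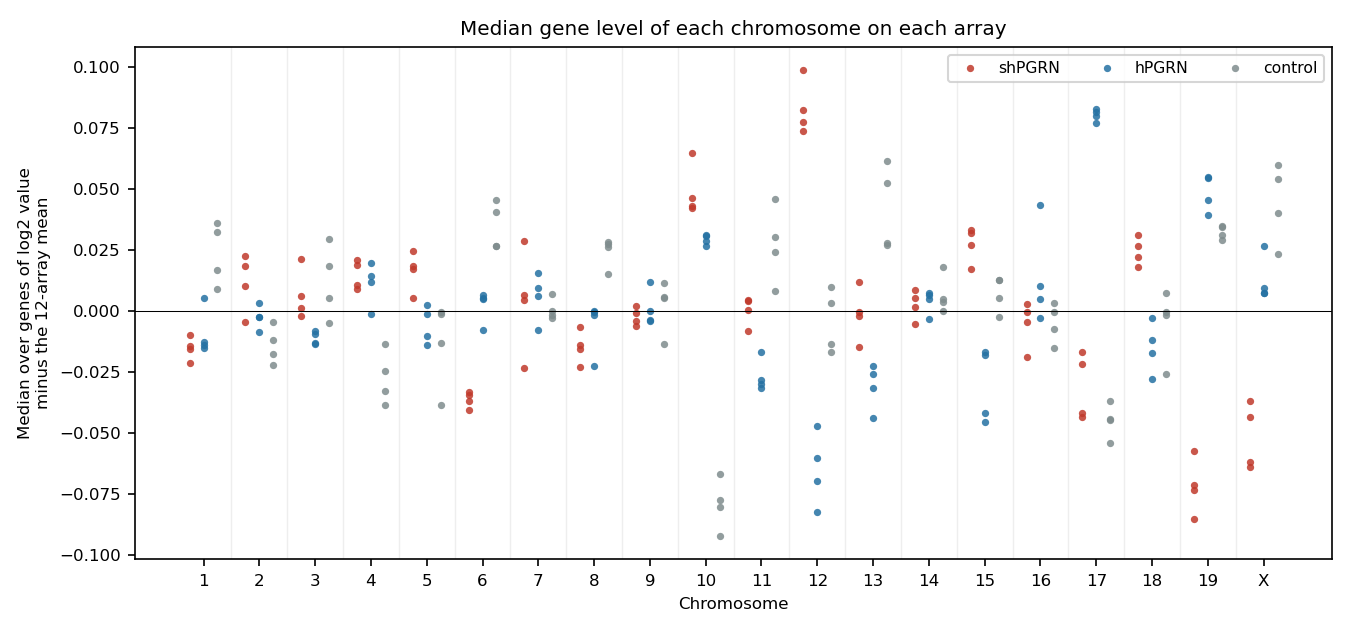
Median over the tested genes of each chromosome (horizontal axis) of the log2 value minus the mean of the 12 arrays (vertical axis), with 1 point per array of shPGRN (red), hPGRN (blue) and control cells (grey). Chromosome 12 is highest on the 4 shPGRN arrays, chromosome 19 is lowest on them, and chromosome 17 is highest on the 4 hPGRN arrays. On chromosome 10 the control arrays are lowest, at -0.09 to -0.07.

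The 12 arrays had 19248 to 19701 of 45281 probes above background each. Of 28 motor neuron and neuron markers with a probe 17 were above background on all arrays of shPGRN cells and 17, not all the same ones, on all arrays of hPGRN cells, and their summed intensity was 28380 to 31170 in shPGRN, 32780 to 35450 in hPGRN and 29860 to 33340 in control cells. Of the 20 that were tested 6 were lower and 1 higher in shPGRN than in hPGRN cells. The higher one was Stmn2, which kept this direction in all alternatives. The study lists Stmn2 as lower in shPGRN than in hPGRN cells. Its RT-PCR primers include a pair for Stmn2, and it reports by RT-PCR that genes of the neuronal cytoskeleton were lower after PGRN depletion. Why the direction on these arrays is the opposite was not tested. On no array above background were 5 of the markers in shPGRN cells and 3 in hPGRN cells, with Mnx1 and Nefl among them in both. Nefl was not above background in control cells either. Isl1, Lhx4, Phox2a, Prph, Nefm and Ret were above it on all arrays of both modified lines. Schwann cell markers, 7 of which have a probe, summed to 1478 to 1694 in shPGRN and 1200 to 1405 in hPGRN cells, and astrocyte and oligodendrocyte markers to 807 to 965 and 733 to 940.4.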

How the data were processed

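RNA of 12 cultures was read on Illumina MouseWG-6 v2 arrays. The study names lumi for normalization and an empirical Bayes test in FlexArray with a 1.5-fold limit. The authors deposited an intensity per probe on a linear scale, from which background had been subtracted and whose distribution is equal on all arrays. No source used here says which steps made it. A second deposited table of signals and detection p-values has 24 columns that match no sample and was not used.

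As 31.7% to 31.8% of the values on an array are negative, normexp (offset 50) was run in limma 3.58.1 under R 4.3.3, then quantile normalization and the log2 transform. This shrinks the fold changes of dim genes. Probes above background (p under 0.05 from the mode and the spread below it, a limit of 12.0 to 12.7) on at least 4 of 12 arrays were kept. Single gene symbols are given for 34885 probes, several for 18 and none for 10378, and 34807 probes match RefSeq by Entrez ID. The kept probe with the highest mean stood for its gene, giving 11278 genes, 4225 of them with several kept probes. lmFit and eBayes were run on the 3 lines together, with Benjamini-Hochberg adjustment over all genes.

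The lists and genes were chosen with earlier results of these data known. Named genes are Grn and genes from the 20 with the widest change in each direction. The 20 come from called genes that the paper does not name and whose 4 shPGRN and 4 hPGRN intensities do not overlap. Up to 4 called genes per list and up to 8 per direction with control cells in the middle are named too. Genes outside these choices, which were picked by their values, are marked so in the text, as are the cilium and histone examples through their lists. 1 of the 32 function lists is not reported here. The steps were run on simulated data with independent noise for each probe and no shift of whole arrays or chromosomes. The outcome of that run is not given here. The number of arrays limits the precision. Equal replicate numbers did not pair the arrays.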

Additional observations from a re-analysis of the deposited data

Results flagged for a closer look

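Among the genes with values in the text, 6 of 240 groups of 4 arrays held 1 array far from the other 3, which chance gives in about 1 of 20 groups. Zcchc24 was at 482 on replicate 1 of shPGRN cells, above 408 to 418 on the others. Fam181b was at 8.63 on replicate 3 of hPGRN cells, below 29.7 to 31.3. Sgk1 was at 201.5 on replicate 3 of hPGRN cells, above 128.9 to 129.6. H2bc6 was at 132 on the same array, below 214 to 223. Gadd45g was at 23.8 on replicate 2 of control cells, above 13.9 to 15.5. Idh1 was at 1492 on replicate 2 of control cells, below 1709 to 1738 on the others. The log2 fold changes of these 6 genes kept their direction and their side of the threshold in all alternatives.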

How the results depend on the processing

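Of 80 genes with values in the text, 74 kept direction and call in all 21 alternatives run on genes, Cad, H2-K1, Irgm1, Tk1 and Trp53inp1 lost the call in 1 each and Rrm2 lost it in 10. The total of 1561 genes lay between 1268 (no filter on dim probes) and 2008 (array weights) across the other settings of normalization, filter, probe choice and fit, and 273 of them (132 lower, 141 higher) were at least 1.5-fold apart, a count that was 442 with a normexp offset of 16 and 657 with the floor at 16 (alternatives chosen after seeing the data). With 1 array left out it lay between 1181 and 1704, with 596 to 868 lower and 585 to 836 higher. A replicate block gave 1433 calls. Same-numbered arrays correlated at -0.158 to 0.127 after line means were removed and 3 arrays correlated best with their own number, so numbers are not taken as pairs. With an array left out, genes that passed the hPGRN step alone numbered 138 to 238, those that passed both in opposite directions 17 to 26 and in the same direction 39 to 69 (40 with a normexp offset of 16), and called genes lower on chromosome 12 numbered 3 to 5 and higher on chromosome 19 5 to 10. Without chromosomes 12, 17 and 19, an alternative chosen after seeing the data, 1259 genes were called. Of 748 list counts under the alternatives 64 moved by over 1.5 times. Of the list medians 5 turned sign. The median of amino acid synthesis was 0.018 without the filter, 0.021 with averaged probes, 0.0049 without replicate 1 of shPGRN cells and 0.0034 without replicate 1 of hPGRN cells, and its lowest with an array left out was -0.057, without replicate 4 of shPGRN cells. The median of ER folding was -0.0028 without replicate 2 of hPGRN cells and at most 0.081, without replicate 4 of hPGRN cells. The cause of these moves was not tested.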
